A study of Homo sapiens with 27 samples.

Results

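The genes described here are 9 caveolin, annexin and S100 genes, CAV1, CAV2, ANXA1, ANXA2, ANXA3, ANXA4, ANXA5, S100A10 and S100A11, out of the 44852 genes in the count table. They were taken by symbol, and the group was chosen by the day 32 levels of CAV1 and ANXA1, which were below those of LN521 on the coating LN523. The day 32 contrasts of coatings, and the step from day 22 to day 32 on LN523 and LN521, therefore hold libraries behind the choice and are given below without a test. The data are bulk RNA-seq of H1, an established human embryonic stem cell line, which was differentiated toward photoreceptors on plates coated with laminin. The 27 libraries fall into 9 groups of 3, with 1 group for each of the coatings LN523, LN323 and LN521 at days 2, 22 and 32. The sample titles number the days differently, and the days of the labels are used here. By the methods, cells were held in the stem cell medium NutriStem for the first 2 days, and the paper describes day 2 cells as undifferentiated. In every culture CKI-7 and SB431542, inhibitors of casein kinase 1 and of TGF-beta family receptors, were added from day 2. The cells then went into photoreceptor medium with B27, N2, BDNF, CNTF, retinoic acid and the gamma-secretase inhibitor DAPT. Each comparison of day 22 with day 2 therefore also spans these changes of medium and inhibitors. The sources differ on what was mixed into each coating: the sample labels give LN523 with LN323, LN521 with LN323, and LN323 alone, whereas the methods give LN523 or LN323 mixed with LN521, and LN521 alone. The coatings are named here by the leading isoform of each group label. All cultures come from 1 line, and the labels do not say whether the 3 replicates of a group were separate cultures, so that p-values measure only the spread between these samples. Depth was 25620624 to 47340990 counts per library, and the replicate number is also the sequencing lane.

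Caveolins are hairpin membrane proteins that, with cavin proteins, shape caveolae, small cholesterol-rich pits of the plasma membrane. CAV1 is the main structural caveolin outside striated muscle, and CAV2 is its partner, which depends on CAV1 to reach the cell surface. Annexins are cytosolic proteins that bind acidic phospholipids when calcium rises, and they take part in membrane repair, endocytosis and exocytosis. Several annexins pair with small proteins of the S100 family: S100A10 binds ANXA2 in a stable complex of paired subunits, and S100A11 binds ANXA1. ANXA5 is the phosphatidylserine-binding annexin widely used to stain dying cells. In the eye, caveolins and annexins are known from pigment epithelium, Müller glia, vessels and surface epithelia.

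By GENCODE 44 on GRCh38, CAV2 (chr7:116287380-116508541) and CAV1 (chr7:116524994-116561179) are neighbours on the plus strand, 16453 bases apart. S100A10 (chr1:151982915-151993859) and S100A11 (chr1:152032506-152047907) lie on the minus strand, 38647 bases apart. ANXA1 is at chr9:73151865-73170393 and ANXA2 at chr15:60347134-60402883. ANXA3 and ANXA5 are at chr4:78551747-78610451 and chr4:121667946-121696995, and ANXA4 is at chr2:69644425-69827112. No exon of a member overlapped an exon of another gene in the table. ANXA2 is the only member with a near-copy: 65.6% of its transcript was matched by the processed pseudogene ANXA2P2 at 95% identity or more. Counts given to ANXA2P2 came to 0.623% of those given to ANXA2.

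The 250 bases before the RefSeq start (GRCh38.p14) are shown for the 4 of 9 members whose window held no annotated exon. They include ANXA1, which changed most between days, and the neighbours S100A10 and S100A11, which moved in opposite directions on LN523 and LN323. Capitals mark CG dinucleotides and the letters TATAAA, searched on both strands. The windows are chr9:73151615-73151864 on the plus strand for ANXA1, chr7:116499488-116499737 on the plus strand for CAV2, chr1:151993860-151994109 on the minus strand for S100A10 and chr1:152037005-152037254 on the minus strand for S100A11.
ANXA1: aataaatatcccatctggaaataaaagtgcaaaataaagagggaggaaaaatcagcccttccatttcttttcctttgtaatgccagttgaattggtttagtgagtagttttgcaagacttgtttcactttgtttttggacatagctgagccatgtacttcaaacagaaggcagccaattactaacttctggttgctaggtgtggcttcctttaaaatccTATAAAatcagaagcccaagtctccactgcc
CAV2: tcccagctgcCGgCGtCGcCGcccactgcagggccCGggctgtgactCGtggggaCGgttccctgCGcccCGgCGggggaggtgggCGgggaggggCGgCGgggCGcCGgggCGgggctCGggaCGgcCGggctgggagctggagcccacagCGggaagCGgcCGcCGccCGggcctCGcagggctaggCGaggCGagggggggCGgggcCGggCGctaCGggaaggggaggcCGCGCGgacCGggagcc
S100A10: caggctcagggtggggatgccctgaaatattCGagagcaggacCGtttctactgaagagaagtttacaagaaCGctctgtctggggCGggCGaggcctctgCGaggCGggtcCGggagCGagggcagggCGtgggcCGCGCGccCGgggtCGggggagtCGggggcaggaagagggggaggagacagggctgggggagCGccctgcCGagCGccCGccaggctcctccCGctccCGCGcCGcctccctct
S100A11: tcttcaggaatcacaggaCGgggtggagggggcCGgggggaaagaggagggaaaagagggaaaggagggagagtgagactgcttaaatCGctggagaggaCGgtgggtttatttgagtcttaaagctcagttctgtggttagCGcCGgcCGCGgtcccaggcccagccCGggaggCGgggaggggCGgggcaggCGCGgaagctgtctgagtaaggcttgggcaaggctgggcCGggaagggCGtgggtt
The ANXA1 window stood apart from those of the other members in base composition. It held 0 CG dinucleotides and 38.4% G and C, with 1 TATAAA, letters that among the other members occurred in the ANXA2 window. The other 8 members held 15 to 35 CG dinucleotides, the most in CAV2. Over all 35116 RefSeq promoters the median was 11 CG dinucleotides and 58.0% G and C, 6.06% of the promoters held no CG, and 10.7% held TATAAA. These are features of the sequence in this window and were not related to a factor.

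Differentiation was plain in all 3 coatings from the marker genes. The 6 pluripotent cell markers summed to 8053 to 13056 CPM (counts scaled to a common library size with TMM factors) at day 2 and to 80.3 to 594 CPM at day 22. The 6 neural retina markers summed to 3.56 to 6.91 CPM at day 2 and to 922 to 1974 CPM at day 22. Replicate 1 of LN521 stood apart at both later days: POU5F1, the core pluripotency factor, was at 73.8 CPM in it at day 22 and at 0.865 to 2.26 CPM in the other day 22 libraries, and at 14.7 CPM in it at day 32 and at 0.957 to 2.44 CPM in the others of that day. In these bulk samples, fewer cells of a type and less RNA per cell cannot be told apart.

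From day 2 to day 22, the members changed in both directions, with the largest rise in ANXA1. CAV2, ANXA1, ANXA2, ANXA3 and S100A11 rose on all 3 coatings, S100A10 fell on LN523 and LN323, CAV1 passed the test on LN521 alone, and ANXA4 and ANXA5 did not pass on any. By edgeR's quasi-likelihood test at a Benjamini-Hochberg adjusted p under 0.05, 5 of 9 members rose and 1 fell on LN523, against 11.5% of all genes rising and 10.2% falling. On LN323, 5 rose and 1 fell, against 11.8% and 10.9% of all genes. On LN521, 6 rose and none fell, against 10.8% and 8.09% of all genes. All genes here are the 44852 fitted, which include many at very low counts. Of these, 16366 had a mean of at least 1 CPM, with the 9 members among them. The share called among such expressed genes was not computed, so the excess of the members over comparable genes is not known. The median log2 fold change of the members was 1.24, 1.12 and 1.66 on LN523, LN323 and LN521, where that of all genes was 0.02, 0.02 and -0.02. DESeq2 called 6, 6 and 5 members, and limma on TPM called 6, 5 and 5. Markers of several other cell types rose in the same comparisons. On LN523, LN323 and LN521, 8, 8 and 8 of 10 mesenchyme and fibroblast markers rose (median log2 fold change 5.00, 5.62 and 4.29), as did 7, 7 and 6 of 12 surface ectoderm and keratinocyte markers (3.98, 2.90 and 2.35) and 6, 7 and 6 of 10 pigment epithelium markers (3.78, 2.62 and 3.10). Their summed levels at day 2 and day 22 were 513 to 751 and 1937 to 5808 CPM for mesenchyme, 239 to 372 and 357 to 959 CPM for surface ectoderm, and 155 to 279 and 1040 to 2603 CPM for pigment epithelium. In the same tests 1 of the 10 mesenchyme markers fell on each coating. Of 7 endothelial markers 0 rose and 2, 3 and 2 fell. Their sums were 193 to 389 CPM at day 2 and 8.81 to 43.4 CPM at day 22. The part of such cells in the members' changes was not tested.

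**Figure D1:**
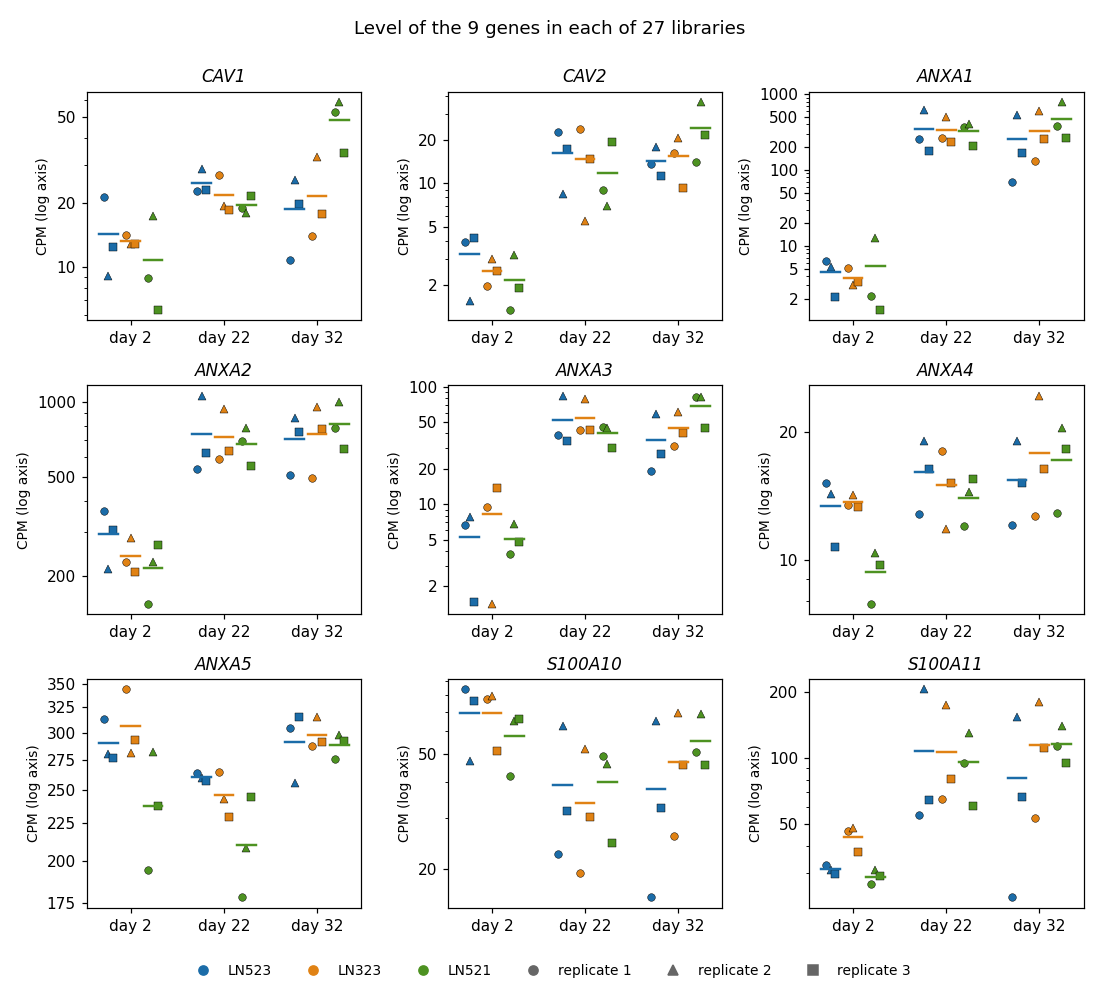
Level of each gene in CPM on a log axis at days 2, 22 and 32, with 1 point per library, colour for the coating and shape for the replicate. Bars are group means of 3 libraries. ANXA1 sits between 1.42 and 12.5 CPM at day 2 and between 180 and 617 CPM at day 22, and CAV1 on LN521 sits between 34.3 and 59.0 CPM at day 32.

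ANXA1, an annexin of epithelia and leukocytes that is induced by glucocorticoids, was near the lower end of the members at day 2 and among the most abundant of them at day 22. At day 2 its level was 6.30, 5.30 and 2.08 CPM on LN523, 5.05, 3.01 and 3.28 CPM on LN323, and 2.17, 12.5 and 1.42 CPM on LN521. At day 22 it was 259, 617 and 180 CPM on LN523, 262, 499 and 237 CPM on LN323, and 370, 403 and 208 CPM on LN521. The days did not overlap in any coating, and replicate 2 was the highest library of each coating at day 22. The log2 fold changes were 6.08 ± 0.44 (SE) on LN523, 6.25 ± 0.45 on LN323 and 6.36 ± 0.45 on LN521, which are 67.7-fold, 76.0-fold and 81.9-fold (edgeR adjusted p = 3.52e-16, 1.59e-16 and 1.37e-16, higher in 3 of 3 lanes). The size on LN521 rested in part on the 12.5 CPM of day 2 replicate 2, since it was 7.15 without that library and 7.31 without all replicate 2 libraries. On LN523 it was 6.72 without day 2 replicate 1.

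S100A11, the partner of ANXA1, rose by less. It was at 26.7 to 47.9 CPM in the 9 day 2 libraries, with a median of 30.9 CPM, and at 55.0 to 206 CPM at day 22, with a median of 80.1 CPM. The days did not overlap. The log2 fold changes were 1.54 ± 0.31 on LN523, 1.12 ± 0.31 on LN323 and 1.66 ± 0.31 on LN521 (edgeR adjusted p = 1.06e-04, 0.00410 and 3.65e-05). On LN523 the rise leaned on replicate 2, at 206 CPM beside 55.0 and 64.2 CPM, and it was 0.92 without the replicate 2 libraries. The authors' TPM divides counts by gene length, with lengths not given in the sources used here. In it S100A11 exceeded ANXA1 by 16.6 to 136 times at day 2 and by 1.42 to 2.39 times at day 22. Which of the 2 was higher at day 22 depends on these lengths. The Ensembl canonical transcripts of S100A11 and ANXA1 hold 563 and 1401 bases, and all their annotated exons 649 and 4453.

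ANXA2 and S100A10, whose proteins form one complex, parted. ANXA2 was at 365, 212 and 305 CPM on LN523, 226, 284 and 206 CPM on LN323, and 154, 226 and 266 CPM on LN521 at day 2. At day 22 it was at 539, 1059 and 625 CPM, 587, 937 and 634 CPM, and 694, 785 and 553 CPM in the same order, above every day 2 library. It rose by a log2 fold change of 1.24 ± 0.22 on LN523, 1.57 ± 0.22 on LN323 and 1.66 ± 0.22 on LN521 (edgeR adjusted p = 1.11e-05, 8.03e-08 and 3.52e-08).

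S100A10 was at 83.8, 47.3 and 76.5 CPM on LN523, 77.8, 79.8 and 51.4 CPM on LN323, and 41.9, 65.2 and 66.0 CPM on LN521 at day 2. At day 22 it was at 22.5, 62.5 and 31.7 CPM, 19.3, 52.1 and 30.2 CPM, and 49.4, 46.3 and 24.5 CPM. The days overlapped in each coating, through replicate 2 on LN523 and LN323. The log2 fold changes were -1.03 ± 0.31 on LN523 and -1.14 ± 0.31 on LN323 (edgeR adjusted p = 0.0101 and 0.00357) and -0.51 ± 0.31 on LN521, which did not pass (adjusted p = 0.319). The fall on LN523 was lost without the lane term (adjusted p = 0.0919), in limma on TPM (adjusted p = 0.359) and without any 1 of day 2 replicates 1 and 3 and day 22 replicates 1 and 3 (edgeR adjusted p = 0.0622 to 0.192). The fall on LN323 was lost in limma (adjusted p = 0.201) and in edgeR without replicate 1 of day 2 or of day 22 (adjusted p = 0.0676 and 0.114). On LN521 the change passed once day 22 replicate 1, the library with POU5F1 at 73.8 CPM, was left out (-0.89, edgeR adjusted p = 0.0462). None of the alternatives tried turned its direction.

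The ratio of S100A10 to ANXA2 in TPM was 1.27 to 1.97 in the 9 day 2 libraries, 0.188 to 0.406 at day 22 and 0.178 to 0.431 at day 32. By this TPM, S100A10 lay above ANXA2 in each day 2 library and below it in each at days 22 and 32. The fall of the ratio does not depend on the gene lengths used, but its side of 1 does. The Ensembl canonical transcripts of ANXA2 and S100A10 hold 1554 and 671 bases, and all their annotated exons 11574 and 1012. Which transcript was the more abundant at day 2 is therefore not settled here. No test was run on the ratio. S100A10 to S100A11, which are genome neighbours, moved likewise, from 0.604 to 1.13 at day 2 to 0.131 to 0.229 at day 22.

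**Figure D2:**
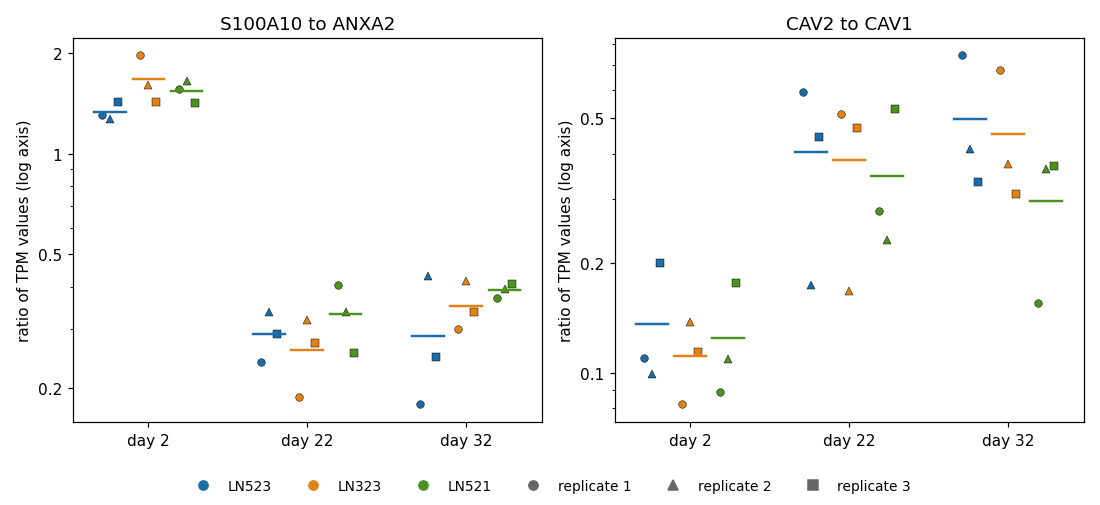
Ratio of TPM values within each library, S100A10 to ANXA2 on the left and CAV2 to CAV1 on the right, on log axes by day, with 1 point per library and bars at group means of 3. The first ratio is 1.27 to 1.97 at day 2 and 0.188 to 0.406 at day 22, whereas the second is 0.0819 to 0.200 and then 0.168 to 0.592.

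The caveolins differed in size of change. CAV2 was at 1.34 to 4.21 CPM in the day 2 libraries (median 2.49) and at 5.55 to 23.6 CPM at day 22 (median 14.8), with no overlap. It rose by a log2 fold change of 2.32 ± 0.45 on LN523, 2.54 ± 0.46 on LN323 and 2.43 ± 0.46 on LN521 (edgeR adjusted p = 5.32e-05, 1.50e-05 and 4.01e-05). In contrast with ANXA1, ANXA2 and S100A11, replicate 2 was its lowest library in each coating at day 22, and on LN521 the change was 3.12 without the replicate 2 libraries.

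CAV1 was at 21.3, 9.12 and 12.4 CPM on LN523, 14.2, 12.8 and 12.9 CPM on LN323, and 8.91, 17.3 and 6.32 CPM on LN521 at day 2. At day 22 it was at 22.6, 28.9 and 22.9 CPM, 27.0, 19.4 and 18.6 CPM, and 19.0, 17.9 and 21.5 CPM. Each day 22 library lay above the day 2 libraries of its coating, by a small margin on LN523 and LN521. The log2 fold changes were 0.76 ± 0.32, 0.70 ± 0.32 and 0.92 ± 0.32 (edgeR adjusted p = 0.0853, 0.119 and 0.0346). The call on LN521 was lost with RLE scaling, filterByExpr, no lane term, DESeq2 or limma (adjusted p = 0.0519 to 0.0738) and in edgeR without day 2 replicate 1, day 2 replicate 3 or day 22 replicate 3 (adjusted p = 0.138 to 0.258). On LN523 it passed in limma, in a fit of only those 6 libraries and without day 2 replicate 1 (adjusted p = 0.0121 to 0.0263), and on LN323 without day 22 replicate 2 (0.0311). CAV2 to CAV1 in TPM went from 0.0819 to 0.200 at day 2 to 0.168 to 0.592 at day 22.

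Among the other annexins of the group, ANXA3, an annexin of myeloid and epithelial cells, was at 0.924 to 8.12 TPM at day 2 and at 24.0 to 69.8 TPM at day 22. It rose by 3.30 ± 0.45, 2.51 ± 0.43 and 3.00 ± 0.44 on the log2 scale on LN523, LN323 and LN521 (edgeR adjusted p = 4.38e-08, 7.02e-06 and 3.43e-07). On LN323 its day 2 libraries were at 9.48, 1.42 and 13.6 CPM, and the change was 1.87 without the replicate 2 libraries, 1.89 without day 2 replicate 2 and 3.35 without day 2 replicate 3. ANXA4, an annexin of secretory epithelia, stayed at 7.88 to 15.2 CPM at day 2 and 11.8 to 19.1 CPM at day 22, with log2 fold changes of 0.24, 0.16 and 0.59 (edgeR adjusted p = 0.695, 0.839 and 0.170). ANXA5 was at 194 to 344 CPM at day 2 and 178 to 265 CPM at day 22. Its log2 fold changes were -0.16, -0.31 and -0.18 (edgeR adjusted p = 0.678, 0.248 and 0.624), with 95% intervals of -0.51 to 0.20, -0.67 to 0.04 and -0.53 to 0.18. In limma on TPM the values on LN523 and LN323 were above 0, at 0.16 and 0.03.

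**Figure D3:**
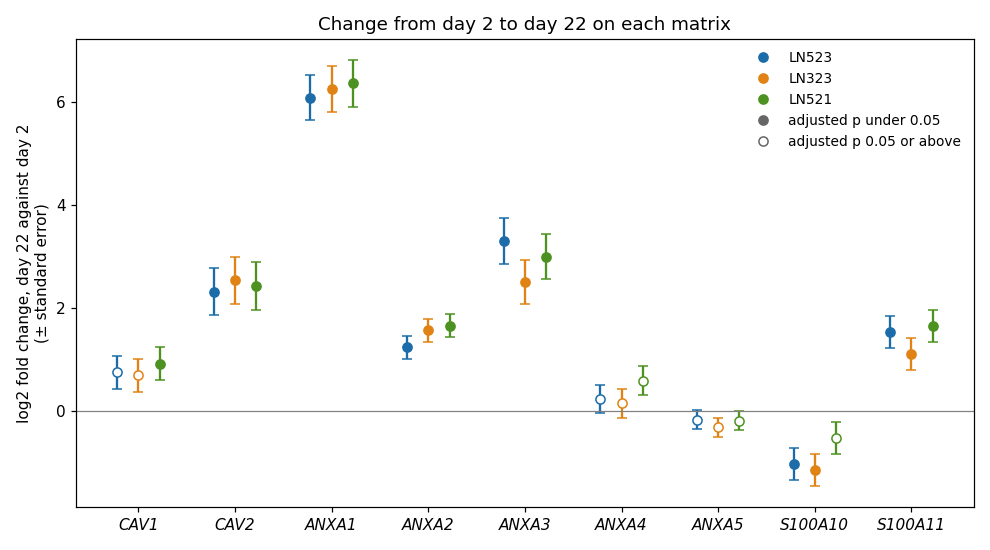
Log2 fold change from day 2 to day 22 of each gene on each coating, with standard errors and 3 libraries per group. Filled points have an edgeR adjusted p under 0.05. ANXA1 lies at 6.08 to 6.36, S100A10 below 0 and ANXA5 between -0.31 and -0.16.

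Through these changes the order of the genes by the authors' TPM was rearranged. At day 2 it ran from ANXA5 (median 308 TPM over 9 libraries), S100A11 (169), S100A10 (160) and ANXA2 (105) down to CAV1 (10.5), ANXA4 (4.26), ANXA3 (4.25), ANXA1 (2.21) and CAV2 (1.10). The ranges over libraries separated ANXA5 from S100A11, ANXA2 from CAV1 and CAV1 from ANXA4, and the other neighbours in that order overlapped. At day 22 it ran from S100A11 (457), ANXA5 (332), ANXA2 (283) and ANXA1 (239) to S100A10 (82.1), ANXA3 (34.5), CAV1 (21.6), CAV2 (8.30) and ANXA4 (5.93). At day 22 the ranges separated CAV1 from CAV2, and the other neighbours overlapped. The order of medians at day 32 was that of day 22. ANXA1 thus moved up past S100A10, ANXA3, ANXA4 and CAV1. These orders rest on the gene lengths behind the TPM. In CPM, which uses no length, ANXA2 led at day 22, with a median of 634 CPM beside 245 for ANXA5 and 80.1 for S100A11. The Ensembl canonical transcripts of ANXA2 and ANXA5 are of similar length, at 1554 and 1638 bases. Which member was the most abundant at day 22 is therefore not settled by the TPM order.

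The next comparisons ask whether the coating made a difference before day 32. No member passed the edgeR test in the 3 comparisons of coatings at day 22, where 0.0130% of all genes did for LN523 against LN323, 0.572% for LN523 against LN521 and 0.616% for LN323 against LN521. At an unadjusted p under 0.05 there were 0, 0 and 1 members, the last being ANXA3 at 0.38 ± 0.19 for LN323 against LN521. DESeq2 and limma called 0 members in each. ANXA3 passed that comparison once LN521 day 22 replicate 1 was left out (0.65, edgeR adjusted p = 0.0462). For CAV1, LN523 against LN521 was 0.35 ± 0.22 (95% interval -0.10 to 0.79), and for ANXA1 it was -0.04 ± 0.17 (-0.38 to 0.30). The latter was above 0 without the lane term and without some single libraries.

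At day 2 no member passed either, where 0.233% of all genes did for LN523 against LN323, 0.624% for LN523 against LN521 and 2.50% for LN323 against LN521. There was 1 member at an unadjusted p under 0.05 in each: S100A11 at -0.48 ± 0.21, ANXA2 at 0.38 ± 0.18 and S100A11 at 0.50 ± 0.21. DESeq2 and limma called 0. Without LN323 day 2 replicate 2, at 1.42 CPM of ANXA3 beside 9.48 and 13.6 CPM, ANXA3 passed against both other coatings, at -1.55 for LN523 against LN323 and 1.42 for LN323 against LN521 (edgeR adjusted p = 6.06e-04 and 3.93e-04).

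No member passed the test of whether the change from day 2 to day 22 differed between coatings. In edgeR 0 members passed, with 0 at an unadjusted p under 0.05 and 0 by DESeq2 and limma, for LN523 against LN323 (0% of all genes), LN523 against LN521 (0.00446%) and LN323 against LN521 (0.0201%). S100A10 fell by the test on LN523 and not on LN521, but the difference between these changes was -0.52 ± 0.43 (95% interval -1.39 to 0.35). For CAV1 the difference of LN523 against LN521 was -0.16 (-1.06 to 0.75) and for ANXA1 -0.27 (-1.32 to 0.77). These intervals still hold changes of over 1 on the log2 scale.

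From day 22 to day 32 the change was tested on LN323, whose libraries took no part in the choice of genes. No member passed the edgeR test, none had an unadjusted p under 0.05, and DESeq2 and limma called 0, where 0.0424% of all genes passed. The log2 fold changes were between -0.28 for ANXA3 and 0.48 for S100A10, with 95% intervals inside -1.09 to 1.09. On LN521, as values with no test, CAV1 was higher at day 32 than at day 22 by 1.28 and CAV2 by 1.05 on the log2 scale, and ANXA1 by 0.39. On LN523 the values were -0.42 for CAV1, -0.17 for CAV2 and -0.56 for ANXA1.

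The day 32 levels that led to the choice are as follows. CAV1 was at 10.8, 25.5 and 19.8 CPM on LN523, 14.0, 32.6 and 17.8 CPM on LN323, and 53.0, 59.0 and 34.3 CPM on LN521. Its group means were 18.7 ± 7.41 (SD, n = 3), 21.5 ± 9.86 and 48.8 ± 12.9 CPM. It was the 1 member of 9 with every LN523 library below every LN521 library, a pattern held by 3.49% of the 16366 genes with a mean of at least 1 CPM, and the 1 member with every LN323 library below every LN521 library, held by 3.80%. The fitted log2 fold changes were -1.48 for LN523 against LN521, -1.29 for LN323 against LN521 and -0.19 for LN523 against LN323. Replicate 1 of LN521, at 53.0 CPM, is the library with POU5F1 at 14.7 CPM, and it also held CAVIN1 at 229 CPM beside 52.1 to 108 CPM in the other day 32 libraries. Without it, CAV1 on LN521 was at 59.0 and 34.3 CPM.

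CAV2 showed the same order with overlap, at 13.7, 17.8 and 11.2 CPM on LN523, 16.1, 20.7 and 9.33 CPM on LN323, and 14.0, 36.4 and 21.6 CPM on LN521. The fitted log2 fold changes against LN521 were -0.73 for LN523 and -0.64 for LN323. LN521 replicate 1, which was high in CAV1, was the lowest of its group in CAV2.

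ANXA1 was at 68.7, 532 and 166 CPM on LN523, 130, 600 and 255 CPM on LN323, and 379, 788 and 263 CPM on LN521 at day 32. The groups overlapped through replicate 2, which exceeded the other libraries of its coating on all 3. The fitted log2 fold changes against LN521, computed within lanes, were -1.29 for LN523 and -0.74 for LN323. S100A11 ran alongside, at 23.2, 154 and 66.6 CPM, 53.6, 181 and 111 CPM, and 114, 140 and 94.8 CPM, with fitted values of -0.93 and -0.27.

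ANXA3 and S100A10 had fitted values of -1.14 and -0.80 for LN523 against LN521, with ranges that overlapped. ANXA3 was at 19.1, 58.6 and 26.9 CPM on LN523 and at 81.1, 82.3 and 44.2 CPM on LN521. S100A10 was at 15.9, 65.0 and 32.6 CPM and at 51.0, 69.0 and 46.0 CPM. ANXA2, ANXA4 and ANXA5 had fitted values of -0.25, -0.18 and -0.01. ANXA5 was the steadiest member at day 32, at 256 to 315 CPM in all 9 libraries.

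Replicate 2 of LN523 and LN323 was the highest library of its group at days 22 and 32 for ANXA1, ANXA2, ANXA3, S100A10 and S100A11. Markers of surface ectoderm and of mesenchyme moved with it. The 12 markers summed to 431, 959 and 357 CPM on LN523 and 405, 714 and 472 CPM on LN323 at day 22, and to 577, 683 and 500 CPM on LN521. At day 32 they summed to 173, 1231 and 409 CPM on LN523, 330, 1444 and 596 CPM on LN323, and 1202, 1212 and 680 CPM on LN521. TP63, the transcription factor of stratified epithelia, was at 3.29, 67.3 and 17.0 CPM on LN523, 11.0, 73.2 and 44.1 CPM on LN323 and 23.8, 87.8 and 26.2 CPM on LN521 at day 32. KRT14, a defining basal keratin, was at 0 to 0.841 CPM in those libraries. Other keratins of the list were higher there, with KRT5 at 0.203 to 8.27 CPM, KRT15 at 0.427 to 144 CPM and KRT17 at 59.6 to 385 CPM. The 10 mesenchyme and fibroblast markers summed to 2328, 5808 and 3106 CPM on LN523, 3504, 4301 and 3988 CPM on LN323 and 2293, 1937 and 2373 CPM on LN521 at day 22. At day 32 they summed to 3413, 11246 and 3002 CPM on LN523, 4484, 17263 and 6660 CPM on LN323, and 3839, 3680 and 2506 CPM on LN521. COL3A1, a fibrillar collagen, was at 514, 5684 and 1036 CPM on LN523 and 1098, 8519 and 3477 CPM on LN323 at day 32. On LN521, where replicate 2 was also the highest for these annexin and S100 genes at day 32, COL3A1 was at 1734, 911 and 891 CPM. The 6 neural retina markers were lowest in replicate 2 of LN523 and LN323 at days 22 and 32. On LN523 they summed to 1898, 922 and 1891 CPM at day 22 and 2191, 1082 and 2204 CPM at day 32. On LN323 they summed to 1530, 1313 and 1974 CPM and then 1888, 935 and 1733 CPM. On LN521 they summed to 1065, 1338 and 1738 CPM and then 1293, 1180 and 1816 CPM. CAV1 and CAV2 were highest in replicate 2 of LN523 and LN323 at day 32 too. The part of such cells in the values of the members was not tested.

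Endothelium, rich in caveolae, was represented by low levels at day 32. The 7 endothelial markers summed to 10.1 to 31.4 CPM over the 9 libraries of day 32, and to 28.4, 11.0 and 10.1 CPM on LN521. The defining markers PECAM1 and CDH5 were at 0.761 to 7.15 CPM and 0 to 2.44 CPM. The 10 pigment epithelium markers summed to 1016 to 1356 CPM on LN523, 950 to 1589 CPM on LN323 and 772, 2530 and 2231 CPM on LN521. Of these markers, RPE65 was at 0.0543 to 1.67 CPM, RLBP1 at 0 to 0.355 CPM and TYRP1 at 11.9 to 160 CPM. The part of endothelium or pigment epithelium in the CAV1 and CAV2 values was not tested.

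After subtraction of each day's mean, the members fell into groups by how they varied over the 27 libraries. These correlations of log2 CPM are a description, since libraries share lanes and coatings and include the day 32 libraries behind the choice of CAV1 and ANXA1, so that values of these genes hold that shared difference. S100A10 and S100A11 had r = 0.90, ANXA2 and S100A10 0.86, and ANXA1 and S100A11 0.79. Both annexin and S100 pairs thus varied together within a day, including ANXA2 and S100A10, whose ratio changed between days. This was not particular to partners, since ANXA1 had 0.76 with S100A10 and ANXA2 had 0.74 with S100A11. CAV1 had 0.72 with ANXA1 and 0.50 with CAV2, and CAV2 and ANXA1 had 0.07. ANXA5 had at most 0.54, with ANXA4.

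**Figure D4:**
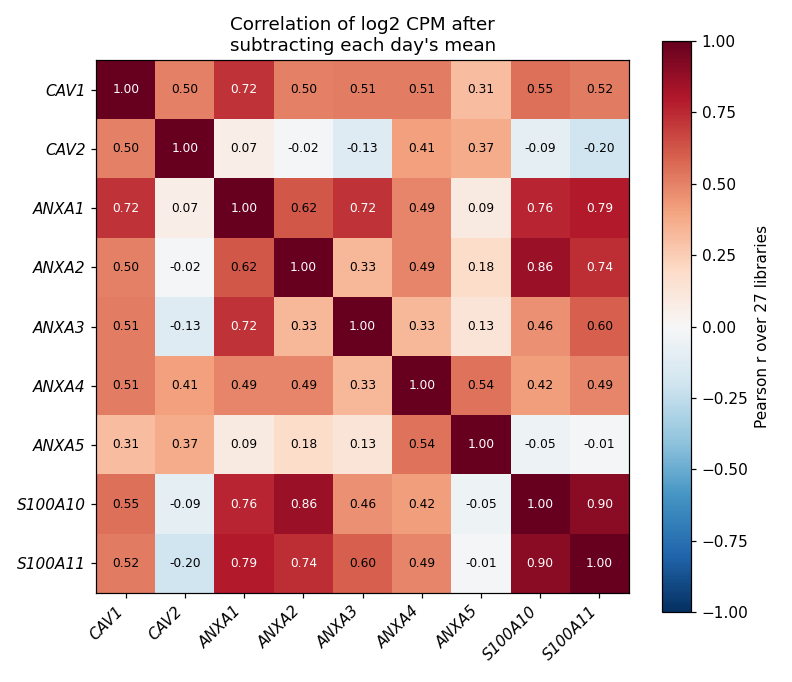
Pearson correlation between the 9 genes in log2 CPM over 27 libraries after subtraction of each day's mean. S100A10 with S100A11 is the strongest pair at 0.90, and CAV2 stands apart from ANXA1 (0.07), ANXA2 (-0.02) and S100A11 (-0.20).

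Over the 16366 genes with a mean of at least 1 CPM, the genes most like CAV1 by this measure were ZNF267 (r = 0.79), RNF144B (0.76) and CASP4 (0.75). Those most like ANXA1 were WNT3 (0.88), RNF144B (0.87) and MTUS1 (0.87). For CAV2 they were PDLIM3 (0.84), MORC3 (0.84) and PCNP (0.84). ANXA2 came with CAPN1 (0.88), S100A10 (0.86) and MAP3K5 (0.86), so its partner was second among all genes. S100A10 came with KCNG1 (0.94), AP1M2 (0.93) and PDLIM1 (0.92), and ANXA2 was not among these.

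Of the other caveola coat genes, the cavins and their membrane-bending partners, 0 of 8 rose and 3 fell on LN523 from day 2 to day 22, 0 rose and 2 fell on LN323, and 1 rose and 2 fell on LN521 in the edgeR test. Of all genes, 11.5%, 11.8% and 10.8% rose and 10.2%, 10.9% and 8.09% fell on LN523, LN323 and LN521. CAVIN3 fell on all 3 coatings, from means of 32.9, 24.4 and 26.0 CPM on LN523, LN323 and LN521 to 6.93, 7.93 and 12.2 CPM, with log2 fold changes of -2.30 ± 0.37, -1.65 ± 0.36 and -1.05 ± 0.35 (edgeR adjusted p = 1.63e-06, 2.77e-04 and 0.0262). Its call on LN521 was lost without 1 of 4 libraries (edgeR adjusted p = 0.0991 to 0.327), namely day 2 replicates 1 and 2 and day 22 replicates 1 and 3, and it was -1.64 without day 22 replicate 2. CAVIN1, needed to form caveolae, went from 102, 89.9 and 96.9 CPM to 77.2, 61.7 and 49.1 CPM and passed on LN521 alone (-1.03 ± 0.31, edgeR adjusted p = 0.0108). The coat list had a median of -0.46, -0.52 and -0.42, and the 1 rise, CAVIN2 on LN521, was of a gene under 1 CPM. The membrane-bending PACSIN3 fell on LN523 (-0.87 ± 0.23, edgeR adjusted p = 0.00319) and PACSIN2 on LN323 (-0.64 ± 0.19, edgeR adjusted p = 0.00857).

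Of the partners of annexins in membrane repair, AHNAK, the giant scaffold that binds the ANXA2 and S100A10 complex, rose on the log2 scale by 4.80 ± 0.30, 5.29 ± 0.30 and 3.95 ± 0.28, from 24.8, 17.0 and 31.9 CPM to 742, 636 and 502 CPM (edgeR adjusted p = 9.08e-19, 4.95e-20 and 2.38e-16). MYOF, a ferlin of membrane fusion, rose by 3.55 ± 0.29, 3.66 ± 0.29 and 3.04 ± 0.28 (edgeR adjusted p = 1.16e-14, 4.53e-15 and 9.95e-13). DYSF, the repair ferlin of muscle, fell, with log2 fold changes of -3.98 ± 0.51, -3.85 ± 0.50 and -3.30 ± 0.49, from 20.5, 30.1 and 24.3 CPM to 1.30, 2.13 and 2.49 CPM (edgeR adjusted p = 1.03e-08, 1.60e-08 and 5.20e-07). On LN521 it was -4.76 without day 22 replicate 1, which held 5.58 CPM beside 1.18 and 0.714 CPM. In the list of 8, 2 rose and 1 fell on LN523, and 2 rose and 2 fell on LN323 and on LN521. Over the 3 coatings 10.8% to 11.8% of all genes rose and 8.09% to 10.9% fell, so that the 1 fall on LN523 is near that share. AHNAK2, a relative of AHNAK, fell on LN521 (-1.52 ± 0.41, edgeR adjusted p = 0.00431).

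Of the 8 other annexins 1 rose on LN523, 1 rose and 1 fell on LN323, and none did on LN521, near the 10.8% to 11.8% of all genes that rose. The fall was ANXA7, at -0.57 ± 0.20 on LN323 (edgeR adjusted p = 0.0258), and the rises were ANXA8 and its near-copy ANXA8L1, which were under 1 CPM and are uncertain, since reads could be split between such copies. Of 16 other S100 genes, 2 rose and 1 fell on LN523, 3 rose and 1 fell on LN323, and 2 rose and 1 fell on LN521, where the rises on LN523 and LN521 are also near the share of all genes. S100B, a glial S100, rose on LN323 (2.05 ± 0.58, edgeR adjusted p = 0.00520). S100A6, which binds annexins, rose by 2.23 ± 0.30, 2.00 ± 0.30 and 2.15 ± 0.30 (edgeR adjusted p = 3.48e-08, 3.20e-07 and 9.97e-08). S100A4, a marker of motile mesenchymal cells, fell, with log2 fold changes of -1.49 ± 0.35, -1.96 ± 0.35 and -1.20 ± 0.35 (edgeR adjusted p = 7.22e-04, 1.47e-05 and 0.00797). On LN521 that call was lost without day 22 replicate 1 or 3 (edgeR adjusted p = 0.0614 and 0.112). S100A9, a gene of neutrophils and stressed keratinocytes, passed on all 3 coatings, at 0 to 0.156 CPM at day 2 and 1.21 to 6.01 CPM at day 22, and reached 57.3 CPM in LN521 day 32 replicate 2.

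**Figure D5:**
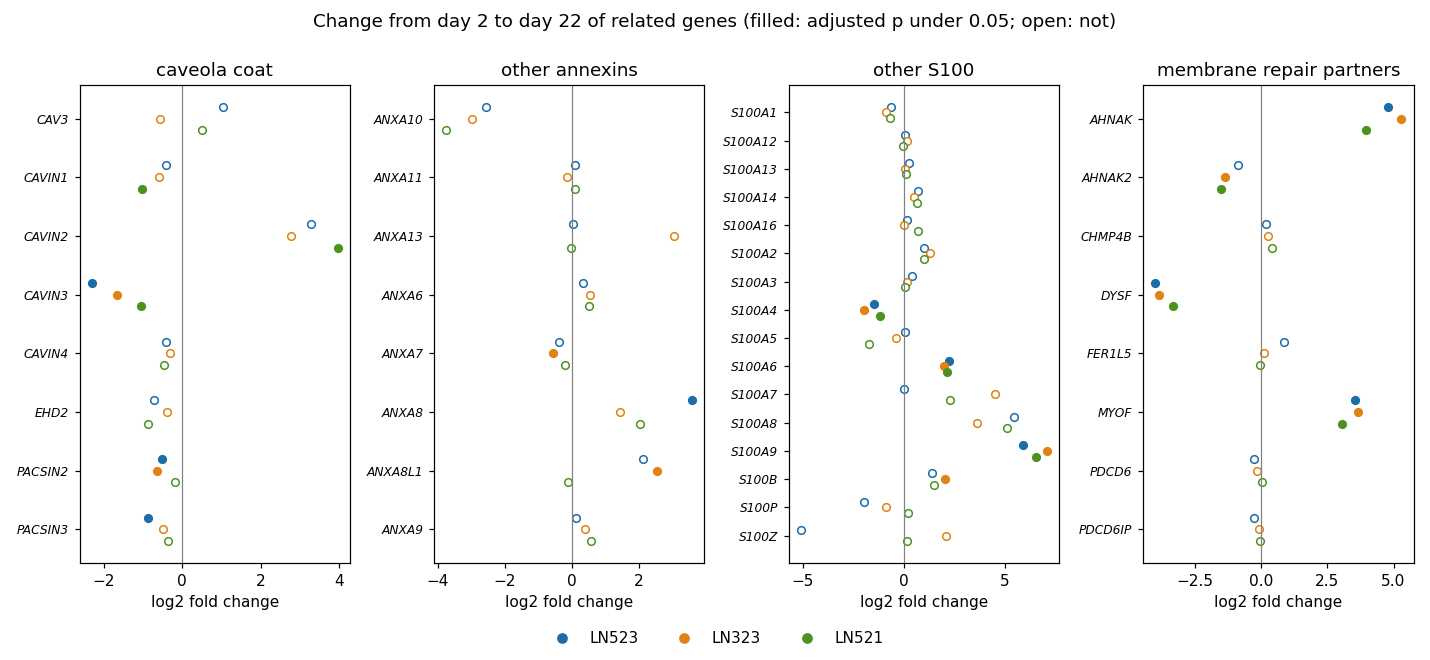
Log2 fold change from day 2 to day 22 of the genes in 4 related lists on each coating, filled where the edgeR adjusted p was under 0.05. AHNAK at 3.95 to 5.29 and DYSF at -3.98 to -3.30 lie at opposite ends of the repair list, and CAVIN3 lies below 0 on all 3 coatings.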

How the data were processed

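RNA of 27 libraries from H1 cells was sequenced as stranded, rRNA-depleted total RNA. The authors trimmed reads with cutadapt, aligned them to GRCh38 (Ensembl annotation) with STAR 2.5.2b, counted them per gene with featureCounts 1.5.1, removed rRNA and mitochondrial genes, and deposited rounded counts. A deposited table of TPM by the authors was used to compare levels between genes. The gene lengths behind it are not given in the sources used here, and the order of 2 genes by TPM can depend on them. The strand setting of counting is not given in the sources used here, and 68.8% of non-zero counts were even. Within groups, 27 pairs of libraries were compared and none was a duplicate (mean chi-square per gene 13.3 to 205).

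The members and gene lists were chosen with earlier results of these data known. Genes with more than 1 count in sum were fitted with edgeR 4.0.16 in R 4.3.3 (TMM, quasi-likelihood test, 2-sided), with the sequencing lane as a term because the study's model held it and the authors' library table gives lane and replicate the same number in 27 of 27 libraries. Changes over time and their differences came from 1 fit of 27 libraries, and comparisons of coatings from the 9 libraries of a day. SE is the size of the log2 fold change divided by the square root of F. Correlations of same-lane deviations (13476 genes) were over 0.1 in all 3 lanes for LN523 against LN323 at day 22 (0.459 to 0.827) and in no other comparison, and averaged -0.205 to 0.241 over time. At day 2 they averaged -0.419 for LN523 against LN323, 0.172 for LN523 against LN521 and -0.113 for LN323 against LN521. The first of these held -0.721 and -0.646 in lanes 2 and 3, so the lanes did not pair libraries there. Alternatives were RLE, filterByExpr, no lane term, DESeq2 1.42.0, limma 3.58.1 on log2(TPM + 1), other sets of libraries and leaving out each library. Leaving out all replicate 2 libraries was added after seeing the data. From each partner list, up to 2 rises and 2 falls per comparison with the largest change, a group mean of at least 1 CPM and 1 sign in all 3 lanes were named, and marker lists are given by sums, counts and defining genes. ANXA8, ANXA8L1 and CAVIN2 were named after their values were seen. The tests were tried on simulated data first. GENCODE and RefSeq supplied positions and promoters.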

Additional observations from a re-analysis of the deposited data

How the results depend on the processing

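The calls of CAV2, ANXA1, ANXA2, ANXA3 and S100A11 from day 2 to day 22 are described with the results, as are those of CAV1 and S100A10, which depend on single libraries. Among the alternative values of log2 fold changes, 575 kept their direction and side of the threshold, 23 lost the call, 6 gained one and 7 changed sign. The sign changes were in values near 0. ANXA5 was 0.16 on LN523 and 0.03 on LN323 in limma on TPM, and -0.20 to 0.00 on LN523 when libraries were left out. ANXA1 for LN523 against LN521 at day 22 was 0.11 with no replicate block and -0.29 to 0.22 when libraries were left out. The cause was not tested.

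Without the replicate block (the lane term), 5, 6 and 5 members were called from day 2 to day 22 on LN523, LN323 and LN521, beside 6, 6 and 6 with it, and 0 in every other comparison tested. Without the replicate 2 libraries, chosen after seeing the data, the numbers were 6, 6 and 6. Leaving out single libraries gave 0 to 1 members for LN323 against LN521 at day 22, 0 to 1 for LN523 against LN323 at day 2 and 0 to 1 for LN323 against LN521 at day 2, the 1 being ANXA3 each time.

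The counts over all genes between coatings varied widely with the method. At day 2, edgeR called 90, 241 and 967 genes for LN523 against LN323, LN523 against LN521 and LN323 against LN521. The same counts were 0, 0 and 0 with filterByExpr or limma, and 0, 9 and 44 with all 27 libraries in one fit. DESeq2 called 706 and 639 in the first and second, the fit of only 6 libraries 0 and 509, and the fit with no replicate block 522 and 1476 in the second and the third. At day 22 the counts were 5, 221 and 238, then 0, 0 and 0 with filterByExpr or limma, 547, 486 and 626 in DESeq2, 0, 1 and 0 with no replicate block and 0, 24 and 40 with all 27 libraries. With only 6 libraries they were 98 and 0 in the first and second, and RLE gave 2 in the first. For day 32 against day 22 on LN323 the 19 genes became 1 with filterByExpr, 12 with no replicate block, 11 in DESeq2, 3 in limma and 350 with only its 6 libraries. The differences of change had 0, 2 and 9 genes, and 10, 10 and 23 in DESeq2, 1, 27 and 18 in limma and 0, 1 and 5 with RLE. With filterByExpr they had 0 each, and with no replicate block the second had 0. The median of all genes moved by 0.15 to 0.18 at day 2 against LN521 with filterByExpr or all 27 libraries, and by 0.16 on LN523 and -0.13 on LN521 over time with only 6 libraries. With 3 libraries a group, the 95% intervals of the members' differences between coatings lay inside -0.77 to 0.95 on the log2 scale at day 22 and inside -1.34 to 1.39 at day 2.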
